A study of Homo sapiens with 3 samples.

Results

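The 9 genes described here carry out iron uptake, storage and export in the cell, control these steps, or guard lipids against iron-driven peroxidation. They were taken from the count table by gene symbol (TFRC, SLC11A2, FTH1, FTL, NCOA4, SLC40A1, ACO1, IREB2 and GPX4), and each of the 9 was found among 51136 gene rows. The cells were PANC-1, an established human line of pancreatic ductal carcinoma, sequenced as 3 libraries of total RNA. The control library came from cells labelled as given no agent, the Rg3 library from cells given 200 μM ginsenoside Rg3, a saponin of ginseng, for 24 h, and the TAM library from cells given 50 μM tamoxifen, an antiestrogen, for 24 h. The labels name no vehicle for the control cells, and each condition is a single library of a single line. In this study the sequencing served to show how Rg3 and TAM each change gene expression in these cells.

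Cells take up iron as transferrin bound to the transferrin receptor, encoded by TFRC, and move it across the endosomal membrane through the divalent metal transporter encoded by SLC11A2. Iron that is not used is stored in ferritin, a shell of FTH1 and FTL chains, or leaves through ferroportin, the exporter encoded by SLC40A1. NCOA4 carries ferritin to the lysosome, where its iron is set free. ACO1 and IREB2 encode iron regulatory proteins 1 and 2, which bind hairpins called iron-responsive elements when iron is scarce. Binding in the 5′ untranslated region blocks translation of ferritin and ferroportin mRNA, and binding in the 3′ untranslated region keeps TFRC mRNA from decay. GPX4 is a selenium enzyme that reduces lipid hydroperoxides, and its loss opens the way to ferroptosis, an iron-dependent form of cell death.

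The hairpins that tie these genes together are shown because they sort the members by the side of the message on which the regulatory proteins bind. The transcripts of GENCODE 29 (GRCh38, the build that the submitters' processing notes also name) were searched on their own strand for the letters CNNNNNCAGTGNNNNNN, with the 5 bases on each side of the loop able to pair. The longest transcript of 0.7% of 57133 gene names held such a match. Of the 9 members, 4 held it in at least 1 transcript, with 7 sites in all. Each line gives 29 bases, 5′ to 3′, with the loop in capitals.
FTH1, 5′ untranslated region, chr11:61967574-61967602, minus strand: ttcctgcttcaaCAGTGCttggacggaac
FTL, 5′ untranslated region, chr19:48965335-48965363, plus strand: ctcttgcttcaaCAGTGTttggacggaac
SLC40A1, 5′ untranslated region, chr2:189580661-189580689, minus strand: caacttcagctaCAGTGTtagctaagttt
TFRC, 3′ untranslated region, chr3:196050979-196051007, minus strand: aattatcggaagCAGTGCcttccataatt
TFRC, 3′ untranslated region, chr3:196050575-196050603, minus strand: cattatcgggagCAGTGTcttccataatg
TFRC, 3′ untranslated region, chr3:196050510-196050538, minus strand: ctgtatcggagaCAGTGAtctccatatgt
TFRC, 3′ untranslated region, chr3:196050463-196050491, minus strand: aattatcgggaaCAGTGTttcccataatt

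The matches in FTH1, FTL and SLC40A1 lay before the coding sequence, and the 4 matches in TFRC lay behind it. No match was found with these letters in the transcripts of SLC11A2, ACO1, IREB2, NCOA4 or GPX4, which says only that no stretch there met both the letters and the pairing.

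The libraries held 11300766 (control), 12861693 (Rg3) and 11321442 (TAM) reads counted on genes. Levels are given as CPM (counts scaled to a common library size, after TMM scaling through the bulk of the genes), and changes are given as log2 fold changes with the 95% counting interval (Clopper-Pearson, exact). Since a condition is 1 library, no value below could be checked on replicates, no p-value is given, the intervals cover counting error only, and conditions cannot be told apart from cultures. In a bulk library, fewer cells with a transcript and less of it per cell also cannot be told apart. A gene was counted as higher or lower past 1.5-fold by its fold alone, provided that 10 or more counts fell on it in 1 of the libraries compared. Against division by library totals, TMM scaling put each change 0.14 lower with Rg3, 0.21 higher with TAM and 0.35 higher between TAM and Rg3. Fold changes also followed base composition and, more so with TAM, transcript length. Over genes with at least 50 counts, Spearman's rho across genes between log2 fold change and the GC content of the longest transcript was -0.81 with Rg3 (11583 genes) and 0.51 with TAM (11022 genes), and genes are not independent replicates. Between log2 fold change and the length of that transcript, rho over the same genes was 0.20 with Rg3 and -0.45 with TAM. The value left once a smooth trend on GC content and transcript length is taken out is therefore given beside each member, and the part of this trend in the results was not tested. The keratins KRT8 and KRT18 and the mesenchymal gene VIM had between 7406 and 55276 counts in each library, while CDKN2A, which is deleted in this line, had no count. CD44 had 7874, 5989 and 5910 counts in the control, Rg3 and TAM libraries. The keratins KRT7 (248, 93 and 345) and KRT19 (665, 290 and 181) were far lower. Of 8 markers of other cell types, 4 had no count and 3 had at most 10 in each library. The exception was COL1A1, a fibroblast marker, with 1853 counts in untreated cells, 1005 under Rg3 and 734 under TAM, and its part in the results was not tested.

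**Figure D1:**
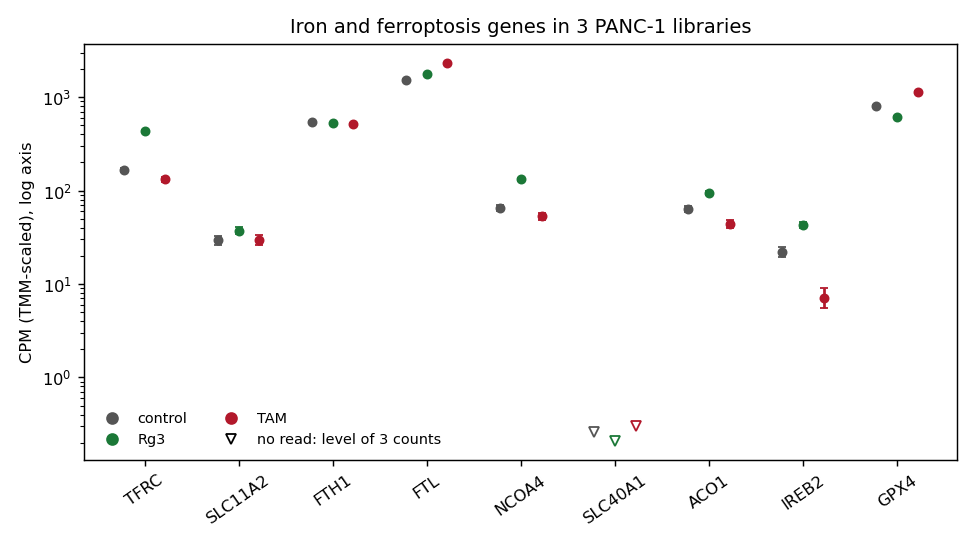
Level of each of the 9 genes in the control, Rg3 and TAM libraries, in TMM-scaled CPM on a log axis, with exact Poisson 95% intervals; open triangles stand for no read and are drawn at the level of 3 counts. TFRC, NCOA4, ACO1 and IREB2 were highest in the Rg3 library, and FTL and GPX4 were highest in the TAM library.

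In the control library the 2 ferritin genes and GPX4 were among the most abundant messages of the cells, and the genes of uptake and control were far lower. Per kilobase of the longest transcript, FTL stood at 1761 CPM, GPX4 at 688, FTH1 at 438, TFRC at 32.4, NCOA4 at 18.3, ACO1 at 8.59, SLC11A2 at 6.73 and IREB2 at 3.47. FTL lay at percentile 99.8 of 14433 genes ranked by this level, GPX4 at 99.5, TFRC at 85.3 and IREB2 at 41.8. The counting intervals of neighbours in this order did not overlap, but they do not cover reads that fell on ferritin pseudogenes. Of the reads on FTH1 and its copies, 37.3% in the control library and 41.7% in the Rg3 library lay on pseudogene rows. The place of FTH1 beside GPX4 is therefore uncertain. The order was the same in the Rg3 library. In the TAM library SLC11A2 (6.82, interval 6.06 to 7.64) stood above ACO1 (5.88, 5.34 to 6.46), but their intervals overlapped. SLC40A1, the gene of the iron exporter (chr2:189560579-189583758, minus strand), had no read in any of the 3 libraries. The exact Poisson 95% interval of a count of 0 reaches 3.69 counts, or 0.321 CPM in untreated cells, 0.256 under Rg3 and 0.371 under TAM. No comparison of SLC40A1 was possible at this depth, so that 8 of the 9 members were compared.

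Rg3 was compared with control to ask which iron genes differ in treated cells. TFRC, NCOA4 and IREB2 were higher past 1.5-fold in the Rg3 library, and none of the 8 members was lower past that limit. Over the 16487 genes compared, 25.0% lay above and 19.3% below the 1.5-fold limits, and division by library totals turned this split from 4122 higher and 3178 lower into 5180 and 2279. The median log2 fold change was 0.46 over the 8 members and 0.04 over all genes compared. The 3 genes that were higher serve iron entry, ferritin release and sensing, and the ferritin genes stayed within 1.5-fold. Of these 3, TFRC alone remained past the limit without the trend (0.77), while NCOA4 came to 0.51 and IREB2 to 0.17. FTL came to 0.57 on that scale, and the median over the 8 members to 0.28. Whether the 3 genes differ as a group by their function was not tested.

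TFRC, the receptor for transferrin (GRCh38 chr3:196027183-196082189, minus strand), drew 1899 counts in untreated cells, 6212 under Rg3 and 1312 under TAM. The Rg3 library stood far above the other two, and no interval overlapped another. Its level was 165 CPM in control cells and 431 with Rg3, a log2 fold change of 1.38 (95% interval 1.31 to 1.46) or 2.61-fold. Of the 16487 genes, 448 had a larger change in this direction, which put TFRC at percentile 97.3, or 94.9 with the trend removed. TFRC transcripts are AT-rich, with a GC content of 41.5% over 5111 bases, and the trend of all genes stood at 0.61 for such a transcript. After removal of the trend the change was 0.77, still past 1.5-fold, and with library totals it was 1.52.

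NCOA4, the receptor that carries ferritin into autophagy (chr10:46005088-46030714, minus strand), drew 746 counts in untreated cells, 1896 under Rg3 and 529 under TAM. It was again highest with Rg3, at 132 CPM against 65.0 in the control library, a log2 fold change of 1.02 (0.90 to 1.14). With the trend removed the change was 0.51, under 1.5-fold. Of the 50-base stretches of the NCOA4 transcript, 5.51% recur in other annotated genes, mainly NCOA4P3.

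IREB2, which encodes iron regulatory protein 2 (chr15:78437431-78501456, plus strand), drew 253 counts in untreated cells, 616 under Rg3 and 71 under TAM. Rg3 was highest and TAM lowest, with intervals of 39.5 to 46.3 CPM with Rg3, 19.4 to 24.9 in control cells and 5.57 to 9.0 with TAM, which do not overlap. The log2 fold change with Rg3 was 0.96 (0.74 to 1.17). Its GC content of 38.3% was the lowest among the members, over 6354 bases. The trend for that GC content and length stood at 0.79, and with the trend removed the change was 0.17.

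ACO1, the cytosolic aconitase that becomes iron regulatory protein 1 when it loses its iron-sulfur cluster (chr9:32384603-32454769, plus strand), had 736, 1372 and 437 counts in the control, Rg3 and TAM libraries. The order of the libraries was that of IREB2. With Rg3 the log2 fold change was 0.57 (0.44 to 0.70), or 1.49-fold, just short of the limit. It was 0.71 with library totals, past 1.5-fold, and 0.29 with the trend removed. SLC11A2, the endosomal iron transporter (chr12:50979401-51028566, minus strand), had 336, 534 and 295 counts, and its log2 fold change with Rg3 was 0.34 (0.14 to 0.54), which became -0.17 with the trend removed.

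The ferritin genes differed little between Rg3 and control. FTH1, the chain with the ferroxidase site (chr11:61959718-61967660, minus strand), drew 6181 counts in untreated cells, 7525 under Rg3 and 5171 under TAM, or 538, 523 and 520 CPM. These intervals overlapped, and the log2 fold change with Rg3 was -0.04 (-0.09 to 0.01) with TMM scaling, 0.10 with library totals and 0.01 with the trend removed. FTL, the light chain of the shell (chr19:48965301-48966878, plus strand), drew 17754 counts in untreated cells, 25254 under Rg3 and 22892 under TAM. Its log2 fold change with Rg3 was 0.18 (0.15 to 0.21), and 0.57 with the trend removed. The trend stood at -0.38 for a transcript with its length and its GC content of 56.3%.

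GPX4, the guard against lipid peroxidation (chr19:1103926-1106791, plus strand), drew 9354 counts in untreated cells, 8826 under Rg3 and 11326 under TAM. It was lowest with Rg3 and highest with TAM, at 613, 815 and 1138 CPM for Rg3, control and TAM. The log2 fold change with Rg3 was -0.41 (-0.45 to -0.37), within 1.5-fold. GPX4 has the highest GC content among the members, 62.5%, over 1184 bases. The trend for that GC content and length stood at -0.69, and with the trend removed the change was 0.28, of the other sign.

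**Figure D2:**
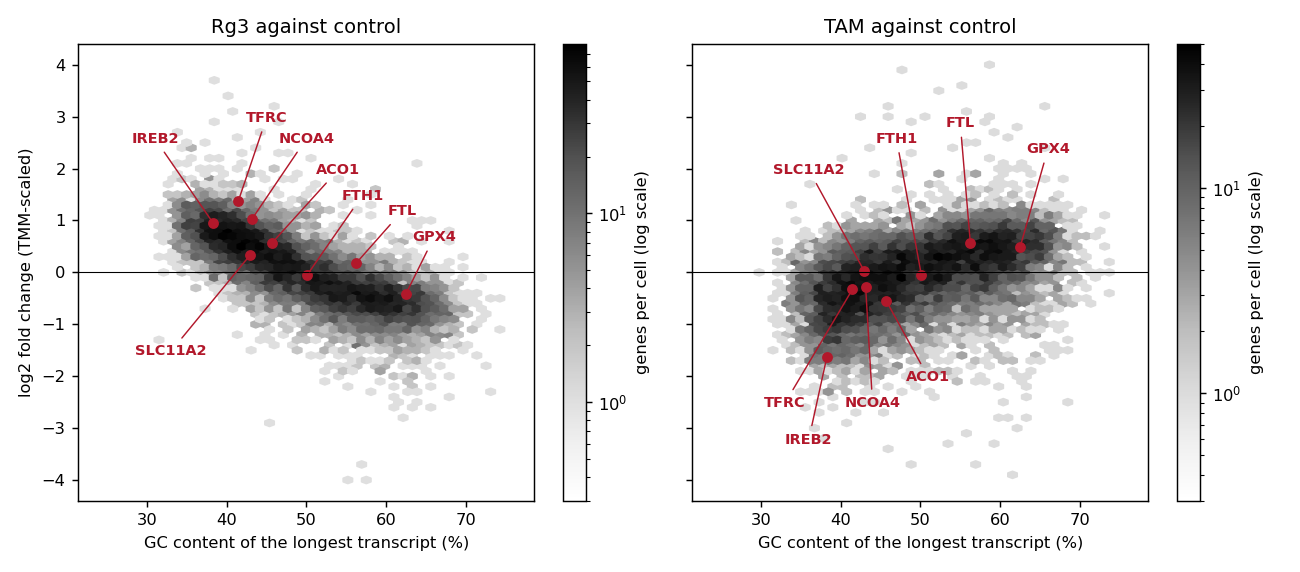
Log2 fold change (TMM-scaled) against the GC content of the longest transcript, in percent, for genes with at least 50 counts and a log2 fold change between -4 and 4; grey shading gives the number of genes per cell on a log scale and red points the 8 compared members. With Rg3 the members rich in AT lay high and GPX4 low, as the bulk of genes did (rho -0.81), and with TAM the slope was the opposite (rho 0.51).

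TAM was compared with control in the same way, against the same control library. IREB2 was the 1 member lower past 1.5-fold, and none of the 8 was higher. Among all 16079 genes compared, 17.4% were higher and 23.5% were lower, and division by library totals turned 2799 higher and 3781 lower into 1576 and 5234. The median over the 8 members was -0.17, against -0.02 over all genes compared. Without the trend the median over the 8 members came to 0.01. FTL and GPX4 were higher with TAM by less than 1.5-fold, and ACO1, TFRC and NCOA4 were lower by less than 1.5-fold.

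The log2 fold change of IREB2 with TAM was -1.63 (-2.03 to -1.24), or 3.09-fold lower. Of the genes compared, 3.10% had a lower value, and with the trend removed 8.17% of those with a GC value did. The trend for its transcript of 6354 bases stood at -0.74, and with it removed IREB2 remained lower past 1.5-fold, at -0.89. With library totals the change was -1.84. ACO1 differed by -0.55 (-0.72 to -0.37) with TAM, by -0.75 with library totals, past 1.5-fold, and by 0.02 with the trend removed.

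With TAM, FTL stood at 2300 CPM against 1546 in control, a log2 fold change of 0.57 (0.54 to 0.60) or 1.49-fold. DESeq2's size factors put it at 0.61, past 1.5-fold, library totals at 0.36 and removal of the trend at 0.27, so that its sign held under each. FTH1 differed by -0.05 (-0.10 to 0.00), by 0.01 with its pseudogene counts added and by -0.26 with library totals. GPX4 was higher by 0.48 (0.44 to 0.52), but its change was -0.01 with the trend removed. TFRC differed by -0.33 (-0.43 to -0.22) and by 0.21 with the trend removed. NCOA4 differed by -0.29 (-0.45 to -0.13), or -0.03 without the trend. SLC11A2 differed by 0.02 (-0.21 to 0.25), by -0.19 with library totals and by 0.40 without the trend.

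**Figure D3:**
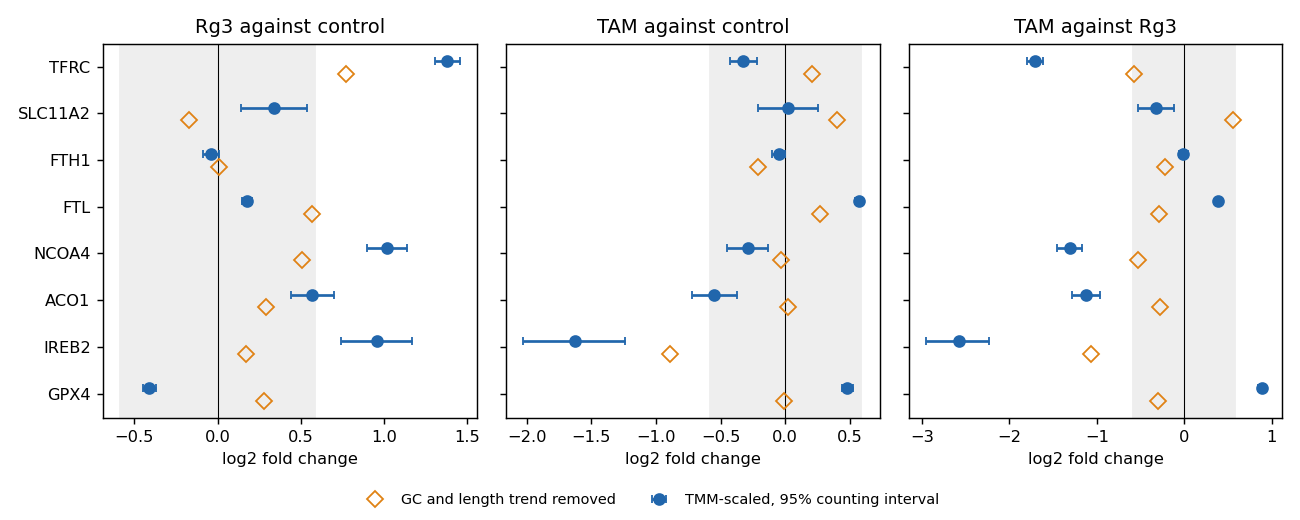
Log2 fold changes of the 8 compared genes in the 3 comparisons of libraries; filled points are TMM-scaled with 95% counting intervals, open diamonds are values without the trend, and the grey band spans changes within 1.5-fold. TFRC with Rg3 (1.38 and 0.77) and IREB2 with TAM (-1.63 and -0.89) lay outside the band on both scales.

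Set directly against each other, at their unequal doses, the TAM library was lower than the Rg3 library past 1.5-fold in 4 of the 8 members and higher in 1. Among 16493 genes compared, 30.0% were higher with TAM and 35.1% were lower, and with library totals 4950 higher and 5793 lower became 3105 and 7466. The log2 fold change was -2.58 (-2.96 to -2.23) for IREB2, -1.71 (-1.80 to -1.62) for TFRC, -1.31 (-1.45 to -1.17) for NCOA4 and -1.12 (-1.28 to -0.96) for ACO1. GPX4 was higher by 0.89 (0.85 to 0.93), a sign that reversed to -0.30 with the trend removed. The trend also took TFRC (-0.57), NCOA4 (-0.53) and ACO1 (-0.28) to within 1.5-fold and left IREB2 (-1.07) past it. FTL differed by 0.39 (0.37 to 0.42), by 0.04 with library totals and by -0.29 without the trend. FTH1 differed by -0.01 (-0.06 to 0.04) with TMM scaling and by 0.02 with DESeq2's size factors, but by -0.36 with library totals and by -0.22 without the trend. SLC11A2 differed by -0.32 (-0.53 to -0.12), by -0.67 with library totals, past 1.5-fold, and by 0.56 without the trend.

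Ratios of reads within a library do not depend on the scaling between libraries, and the pairs below were chosen after their counts were seen. For each read of FTH1 there were 0.307 reads of TFRC in the control library (95% interval 0.292 to 0.323), 0.826 with Rg3 (0.798 to 0.854) and 0.254 with TAM (0.239 to 0.270). This ratio thus stood highest with Rg3, by 2.69-fold over control. For each read of ACO1 there were 0.344 reads of IREB2 in the control library (0.297 to 0.397), 0.449 with Rg3 (0.408 to 0.494) and 0.162 with TAM (0.125 to 0.209). The ratio of FTL reads to FTH1 reads, not corrected for length, was 2.87 (2.79 to 2.96) in the control library, 3.36 (3.27 to 3.44) with Rg3 and 4.43 (4.3 to 4.56) with TAM. It was thus highest with TAM, by 1.54-fold over control. Such ratios still carry the differences in GC content and length between their genes. They use the FTH1 and FTL rows alone and leave out the reads on pseudogene rows. Those were 37.3%, 41.7% and 39.8% of the reads on FTH1 and its copies in the control, Rg3 and TAM libraries. For FTL and its copies they were 14%, 14.4% and 11.8%. The ratios with these reads added were not computed.

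Ferritin reads can be split between the genes and their processed copies. In the longest FTH1 transcript, 78.7% of 50-base stretches recur in other annotated genes. The main partner is BEST1 (62.3%), which overlaps FTH1 on the opposite strand and had at most 2 counts in any library. The use of strand in counting is not given, so how reads in this overlap were counted is not known. For FTL the share was 18.3%, with FTLP3 as the main partner. The table held 24 rows of FTH1 pseudogenes, of which 15 had at least 10 counts in a library: FTH1P1, FTH1P2, FTH1P3, FTH1P4, FTH1P5, FTH1P7, FTH1P8, FTH1P10, FTH1P11, FTH1P12, FTH1P13, FTH1P15, FTH1P16, FTH1P20 and FTH1P23. Together the 24 rows took 3676 counts in untreated cells, 5375 under Rg3 and 3423 under TAM, or 37.3%, 41.7% and 39.8% of the reads on FTH1 and its copies. With Rg3, 3 of 15 compared rows were higher past 1.5-fold (FTH1P1, FTH1P3 and FTH1P5), beside 25.0% of all genes compared. With TAM 1 of 13 was lower (FTH1P4), beside 23.5%. Of 19 rows of FTL pseudogenes, FTLP3 (2743, 4048 and 2953 counts) and FTLP2 (134, 202 and 111) had at least 10 counts. With the pseudogene counts added, the change of FTH1 with Rg3 was 0.06 and that of FTL was 0.19, and with TAM they were 0.01 and 0.54. The values of FTH1 and FTL are thus uncertain by the reads that the counting put on these copies. Those of FTH1 are also uncertain by reads in the overlap with BEST1.

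Around the members, 8 lists hold 79 further symbols of iron handling, heme and ferroptosis, of which 78 were in the table and 67 could be compared. With Rg3, 18 of the 67 were higher past 1.5-fold and 5 were lower, and with TAM 14 were higher and 8 were lower. Between TAM and Rg3, 24 were higher with TAM and 19 were lower. Against control, the shares that were higher lay near those over all genes given above, and the shares that were lower lay below them. The comparisons of Rg3 and of TAM with control share the control library. The median over the 67 was -0.02 with Rg3 and 0.16 with TAM. Counts by list are given below beside the shares over all genes, and no list was tested as a set.

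Among the genes that supply GPX4 with glutathione and selenium, 6 of 12 were higher with Rg3, beside 25.0% of all genes compared, and none was lower, with a median of 0.53. Without the trend 2 of the 12 were higher, with a median of 0.27, beside 1260 of the 14279 genes that have a GC value. SLC7A11, which imports cystine for glutathione, drew 43 counts in untreated cells, 312 under Rg3 and 27 under TAM, a log2 fold change with Rg3 of 2.53 (2.07 to 3.03), or 1.63 with the trend removed. TXNRD1, a selenium-containing reductase of thioredoxin, was higher by 1.29 (1.21 to 1.37) and by 0.92 without the trend. GCLM, a subunit of the enzyme that starts glutathione synthesis, and PSTK, a kinase in the making of selenocysteine, were higher by 1.18 (0.84 to 1.54) and 0.85 (0.52 to 1.18), but by 0.34 and 0.33 without the trend. With TAM, 2 of the 12 were higher and 1 was lower, with a median of 0.01, beside 17.4% and 23.5% of all genes compared. SLC3A2, the partner chain of SLC7A11, was higher by 0.89 (0.81 to 0.97) and glutathione synthetase GSS by 0.65 (0.55 to 0.75), and GCLC, the catalytic partner of GCLM, was lower by a log2 fold change of -0.59 (-0.94 to -0.26). These 3 values came to 0.51, 0.45 and -0.35 without the trend.

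On the lipid side of ferroptosis, ACSL4 and CHAC1 stood out among 5 compared genes of 9 listed. ACSL4, which loads polyunsaturated fatty acids for membrane lipids, drew 522 counts in untreated cells, 2309 under Rg3 and 174 under TAM. Its log2 fold change was 1.82 (1.68 to 1.96) with Rg3 and -1.38 (-1.63 to -1.13) with TAM, and 0.98 and -0.70 without the trend, past 1.5-fold in each. CHAC1, which breaks down glutathione, had 118, 242 and 453 counts and was higher with both agents, by 0.71 (0.39 to 1.04) with Rg3 and by 2.15 (1.85 to 2.45) with TAM, and by 1.37 and 1.72 without the trend. LPCAT3, which places such fatty acids into phospholipids, was lower with TAM by a log2 fold change of -0.76 (-1.01 to -0.52), or -0.93 without the trend. In this list 2 of the 5 stood above and none below the limits under Rg3 (list median -0.07), beside 25.0% and 19.3% of all genes. With TAM 1 was higher and 2 were lower (list median 0.25), beside 17.4% and 23.5%. Both medians took the other sign without the trend, at 0.36 and -0.11.

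Of 6 ferroptosis defence genes other than GPX4, 1 was higher and 1 lower with Rg3 (list median 0.12), beside 25.0% and 19.3% of all genes. With TAM 1 was higher and 2 lower (list median 0.38), beside 17.4% and 23.5%. NFE2L2, which encodes the antioxidant factor NRF2, had 473, 1208 and 245 counts and differed by 1.03 (0.87 to 1.18) with Rg3 and by -0.74 (-0.97 to -0.52) with TAM, or by 0.73 and -0.68 without the trend. DHODH, which reduces ubiquinone in mitochondria, was lower with Rg3 at -0.94 (-1.19 to -0.69), or -0.66 without the trend. AIFM2, the ubiquinone reductase known as a GPX4-independent guard, was higher with TAM by 0.97 (0.82 to 1.12), or 0.75 without the trend.

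In the list of iron uptake and import, 3 of 11 compared genes were higher and 2 lower with Rg3 (list median -0.33). The shares over all genes were 25.0% and 19.3%. With TAM 5 were higher and 2 lower (list median 0.20), beside 17.4% and 23.5%. CYBRD1 (4, 24 and 18 counts in the control, Rg3 and TAM libraries) and SLC39A8 (17, 54 and 30) were among those higher with each agent, on few counts. TFR2, a second transferrin receptor, had 88, 28 and 73 counts. It was lower with Rg3 at -1.98 (-2.65 to -1.35), or -1.29 without the trend. STEAP3, the endosomal reductase that works beside TFRC, had 2258, 1357 and 3500 counts. Its change was -1.06 (-1.16 to -0.96) with Rg3 and 0.84 (0.76 to 0.92) with TAM. Without the trend these were -0.58, within 1.5-fold, and 0.72. STEAP3 thus stood lowest in the library where TFRC was highest. STEAP1, a relative of STEAP3, was higher with Rg3 by 0.69 (0.29 to 1.11), or 0.21 without the trend. With TAM, the lysosomal channel gene MCOLN1 was higher by 0.78 (0.55 to 1.01) and the mitochondrial iron importer SLC25A37 by 0.70 (0.54 to 0.86), and the metal importer SLC39A14 was at -0.72 (-0.86 to -0.58). Without the trend these were 0.40, 0.84 and -0.50.

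Of the genes of iron export and systemic control, 4 of 9 listed were compared, and 2 were higher with Rg3 (median 0.44) and 1 was lower with TAM, where the median was near 0. FLVCR1, a heme and choline transporter, was higher with Rg3 by 1.91 (1.45 to 2.4), from 46 to 217 counts, or 1.41 without the trend. Hepcidin, encoded by HAMP, had no count in any library. Among iron chaperones, heme breakdown and control of the regulatory proteins, 1 of 9 compared genes was higher with Rg3 (median -0.21). With TAM 3 were higher (median 0.20), and none was lower with either agent. Over all genes, the shares above the limit were 25.0% under Rg3 and 17.4% under TAM. The shares below it were 19.3% and 23.5%. FBXL5, which marks iron regulatory protein 2 for destruction, was the 1 higher with Rg3, by 0.82 (0.52 to 1.14), or 0.13 without the trend. BLVRB, EPAS1 and HMOX2 were higher with TAM by 0.68, 0.61 and 0.59, or 0.27, 0.68 and 0.21 without the trend.

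The same shares over all genes, 25.0% and 19.3% with Rg3 and 17.4% and 23.5% with TAM, apply to the last lists. In iron-sulfur cluster assembly, 2 of the 12 listed stood above and 1 below the limits under Rg3 (median 0.07) and none passed 1.5-fold with TAM (median 0.11). Ferredoxin FDX1 was higher by 0.59 (0.32 to 0.86) and its reductase FDXR was at -0.75 (-0.97 to -0.52), or -0.01 and -0.08 without the trend. In heme synthesis, 1 of the 8 listed stood above and 1 below the limits under Rg3 (median -0.29), and 2 were higher with TAM (median 0.28). CPOX was higher with Rg3 by 0.62 and UROD with TAM by 0.65, or 0.49 and 0.29 without the trend.

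**Figure D4:**
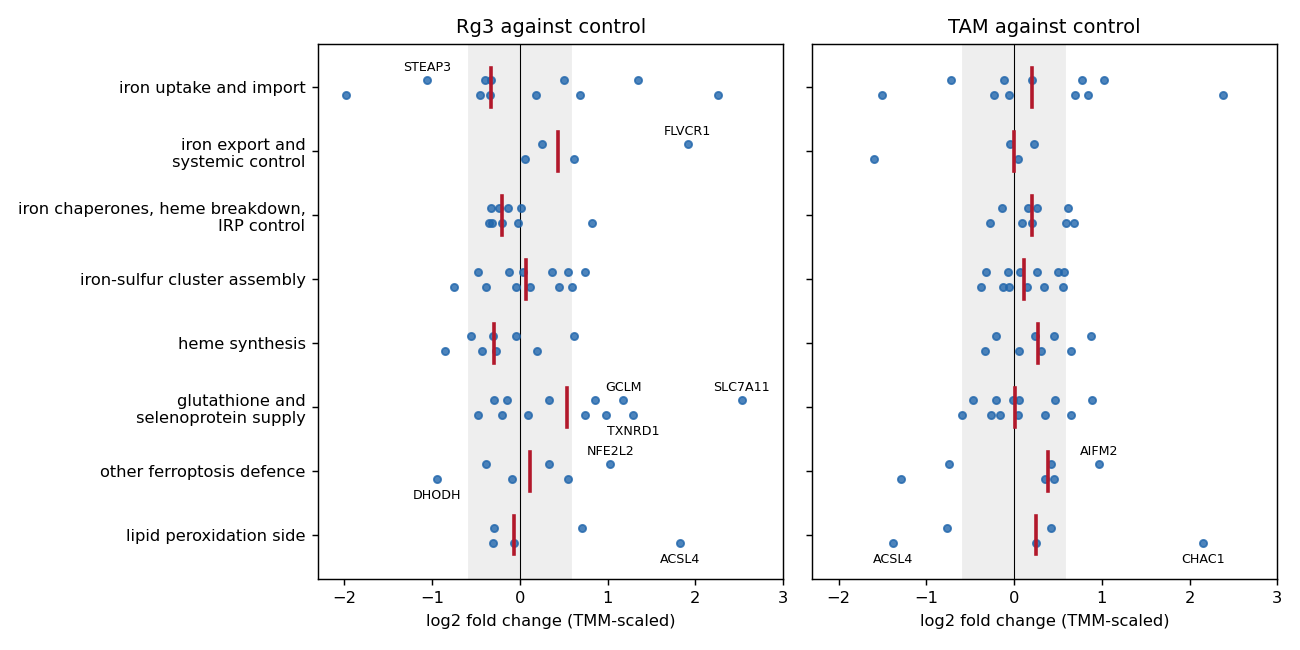
Log2 fold changes (TMM-scaled) of the compared genes in 8 lists of iron and ferroptosis genes outside the 9 members, with Rg3 and with TAM against control; each point is a gene, the red line is the median of the list and the grey band spans changes within 1.5-fold. The median of the glutathione and selenoprotein list was 0.53 with Rg3 (0.27 without the trend), and ACSL4 lay at 1.82 with Rg3 and at -1.38 with TAM.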

How the data were processed

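The 3 RNA-seq libraries of PANC-1 cells were grouped by their labelled agent. The authors used TopHat for alignment, and the deposited values are raw counts, 1 row a gene symbol; the annotation, the counting tool and the use of strand are not given in the sources used here. TMM factors (edgeR 4.0.16, R 4.3.3) were 1.02 for control, 1.12 for Rg3 and 0.879 for TAM. In a fold, 3 stood in for any smaller count. The study's Limma criteria need replicates and could not be fitted here, so the fold of 1.5 was used alone, with exact Clopper-Pearson and Poisson 95% intervals (Python 3.11.15, SciPy 1.17.1). Transcript length and GC content refer to the longest entry that GENCODE 29 lists under a symbol, found for 86.6% (Rg3), 87.2% (TAM) and 86.5% (TAM against Rg3) of the genes compared, and the trend was a loess with span 0.3. Per-length levels use the same transcript.

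All 9 members are described. Of each list, up to 4 genes per comparison with the largest changes past the fold and at least 100 counts are named, and ferritin pseudogenes with at least 10 counts. CP, CYBRD1, SLC39A8, TFR2 and HAMP had fewer counts and are named outside this rule. Some genes that this rule selects are not reported here. Members and lists were chosen with earlier results of these data known. Alternatives were library totals, DESeq2 1.42.0 size factors, filters of 1 and 50 counts, other call rules, trend removal and added pseudogene counts. The steps were tested on simulated data.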

Additional observations from a re-analysis of the deposited data

How the results depend on the processing

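No paired analysis was possible because no condition was sequenced more than once, and for the same reason no library could be left out. The counts of members past 1.5-fold were as reported with filters of 1 or 50 counts, with pseudogene counts added and with an adjusted exact binomial p under 0.05 required beside the fold. These settings say little about the members. Each compared member had at least 253 counts in 1 of the libraries compared, so the filters could drop none. The added pseudogene counts could change FTH1 and FTL only, and the binomial p covers counting error only. With DESeq2's size factors, 1 member (FTL) was higher with TAM. With library totals, 4 members were higher with Rg3 (3 as reported), 2 were lower with TAM (1 as reported), and with TAM against Rg3 0 were higher and 5 were lower (1 and 4 as reported). With the trend removed, 1 member was higher with Rg3, and against Rg3 0 were higher with TAM and 1 was lower. In that setting the sign of GPX4 between TAM and Rg3 reversed to -0.30; the cause was not tested. With a fold of 2, 0 members were higher with TAM against Rg3. The spread between cultures was not measured. When edgeR's exact test was given a biological variation of 0.4 by assumption, 0 members passed in any comparison and direction.

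Of the listed genes outside the members, 9 were higher with Rg3 with the trend removed (18 as reported), and 11 were lower with TAM against Rg3 (19 as reported). With Rg3, a fold of 2 left 8 higher and 2 lower. With TAM it left 3 higher and 4 lower against control, and 11 in each direction against Rg3. Library totals left 7 higher with TAM and 11 higher with TAM against Rg3, and the assumed variation left 0 in each comparison.

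Over all genes, removal of the trend, which is confined to genes with a GC value (14279 of 16487 with Rg3, 14019 of 16079 with TAM and 14269 of 16493 between them), left 1260 higher and 1408 lower with Rg3, 2115 lower with TAM, and 2720 higher and 2752 lower with TAM against Rg3. A fold of 2 left 1470 higher and 1149 lower with Rg3, 862 and 1824 with TAM, and 2781 higher with TAM against Rg3. A filter of 50 counts left 2099 lower with Rg3 and 2498 lower with TAM. Library totals left 1576 higher with TAM and 3105 higher with TAM against Rg3. With the assumed variation, 1 gene was lower with Rg3, 1 lower with TAM and 0 passed otherwise.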
